A study of Mus musculus with 172 samples.

Results

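The cytosolic ribosome is built from ribosomal RNA and a large set of small, mostly basic proteins, and the genes of those proteins were examined here as a group. They were chosen by symbol alone: every gene of the deposited tables named Rpl or Rps followed by a number, with or without the paralog letters a, x, y or l, together with Rplp0, Rplp1, Rplp2 and Rpsa. This gave 80 members, 47 of the large and 33 of the small subunit, of the 16308 genes listed in cortex or liver. The cortex tables listed 78 of them and the liver tables all 80, with Rpl34 and Rps29 listed in liver only. The rule uses the symbol and no measured value.

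Ribosomal protein genes are among the most strongly transcribed genes of a mammalian cell, because each ribosome needs 1 copy of nearly every protein. Their messenger RNAs carry a terminal oligopyrimidine (TOP) tract, an unbroken run of C and U at the very 5′ end, through which the kinase complex mTORC1 sets how much of the message is translated. Changes in ribosomal protein synthesis can therefore take place with no change in transcript level, and it is the transcript level that was measured here. The mouse genome also holds many processed copies of these genes, so that reads from them are hard to place.

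The RNA came from cerebral cortex and liver of male mice aged 11 to 14 weeks. Their genotypes were 33 BXD/RwwJ recombinant inbred lines, which each carry a fixed mosaic of C57BL/6J and DBA/2J chromosomes, the parental strains C57BL/6J and DBA/2J with 2 pools each, and the reciprocal hybrids C57/BL/J x DBA/2J F1 (below F1 BD) and DBA/2J x C57/BL/J F1 (F1 DB) with 1 pool each. In each of these 39 lines or pools, one set of mice was kept awake by gentle handling for 6 h from light onset (SD) and another was left undisturbed (Ctr), and both were killed at the end of those 6 h. A library is usually a pool of 3 mice, so the spread below is that between pools of different genotype. The labels of BXD96, BXD97 and BXD103 also carry the numbers of BXD48, BXD65 and BXD73, each with an added letter. All of them were counted as lines of their own. Another 16 libraries, of 4 BXD/TyJ lines, were left out except where stated.

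Cortex libraries held 18995492 to 28998853 counted reads and liver libraries 4681101 to 8269401. Ribosomal protein genes took a median of 0.234% of them in Ctr and 0.233% in SD cortex, and 0.652% and 0.656% in liver. The labelled tissues had their own markers: all 7 markers of cortical neurons were listed in cortex and all 8 of hepatocytes in liver. One library stood apart in each tissue. In the BXD90 Ctr cortex library the members lay a median of 0.46 log2 units above the mean of the other lines and 44 of 78 were above every other Ctr library, against 17.0% of all genes, whereas its SD library was at 0.01. The choroid plexus markers of that library summed to 149 CPM in Ctr and 11.005 CPM in SD (6.34 to 230 CPM over all Ctr libraries), and their part in the result was not tested. In the BXD70 SD liver library 76 of 80 members were above every other SD library, against 23.4% of all genes, at a median of 0.59 log2 units over the others, and that library also had the lowest total of all, 4681101 reads. Its erythroid markers (2 of 9 listed) summed to 374 CPM, the highest of the SD livers, its neuron markers (2 of 7 listed) to 22.4 CPM, the lowest, and its B cell markers to 10.7 CPM, and their part in the result was not tested. The counts of members called for SD are given with and without these lines, and so are some single changes. The test of differences between lines was not repeated without them.

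A tract at or near the annotated start was found in some of the members. RefSeq starts (GRCm38.p6) were at hand for 60 of the 80 members. A run of 8 or more C or T on the transcribed strand, lying at or within 5 bases of a start, was counted. It was found in 24 of the 60 (40%), against 12.4% of 12020 listed genes. Runs that ended shortly before the start were counted too, so some lie wholly outside the transcript. At the first start of each gene the shares were 35% and 10.01%, and the longest run near a start had a median of 6 bases in members and 4 bases in all genes. Each sequence below gives 10 bases before and 20 bases from the start, with a run of at least 8 C or T in capitals. The first 6 show the tract in members described further on.
Rps6: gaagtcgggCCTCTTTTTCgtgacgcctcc
Rpl27a: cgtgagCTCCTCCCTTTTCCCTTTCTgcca
Rps18: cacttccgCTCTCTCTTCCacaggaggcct
Rpl14: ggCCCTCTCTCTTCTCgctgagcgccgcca
Rpl15: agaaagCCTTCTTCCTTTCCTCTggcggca
Rps27: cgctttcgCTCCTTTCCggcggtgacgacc
They lie at chr4:86857348-86857377 (minus strand), chr7:109519185-109519214 (plus), chr17:33955646-33955675 (minus), chr9:120571507-120571536 (plus), chr14:18270967-18270996 (minus) and chr3:90213629-90213658 (minus).

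The next 4 are among the 5 members with the largest rises with SD in cortex, and no run of 8 was found in their first window, nor in that of Rpl27, which is the other and is not printed.
Rpl12: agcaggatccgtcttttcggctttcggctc
Rpl7l1: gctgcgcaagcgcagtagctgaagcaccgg
Rpl36a: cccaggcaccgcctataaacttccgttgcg
Rpl10: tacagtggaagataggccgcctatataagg
They lie at chr2:32961702-32961731 (plus), chr17:46782637-46782666 (minus), chrX:134585644-134585673 (plus) and chrX:74270806-74270835 (plus). In cortex, the test for SD described next was passed by 3 of the 21 members with a run counted at the first start. It was passed by 13 of the 38 without one, and by 68.4% of all listed genes. The median changes of these members were 0.03 and 0.06 log2 units. Rpl4 and Rps27l, which passed, were counted with a run that lies wholly before the first transcribed base. Those runs begin at -18 (14 bases) and -12 (9 bases). In liver none of the 21 or 39 passed, against 44.2% of all genes. Shares of all genes with and without a run were not counted. These counts describe the windows and were not tested.

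In cortex, most ribosomal protein transcripts changed little after SD while most other genes changed. Of 78 members, 17 (21.8%) passed the test, 14 higher and 3 lower, whereas 68.4% of the 14896 listed genes passed it, 33% higher and 35.4% lower. Here a gene passed when the adjusted p of limma, by the Benjamini-Hochberg method over all listed genes, was under 0.05 for SD minus Ctr over 39 against 39 libraries. The median change of the members was 0.03 log2 units, a rise of 2.25%, against a median of -0.01 over all genes, and 55 members were nominally above and 23 below no change. Without regard to sign, the median change was 0.05 in members and 0.13 in all genes, and 58 of the 78 members changed by under 0.1 log2 units. Large subunit members accounted for 12 of the 14 rises and 2 of the 3 falls (46 members, median 0.05), and small subunit members for 2 rises and 1 fall (32 members, median 0.02). Because 27 of the 78 had a median of under 100 reads, the same comparison was made at a mean level of at least 4 log2 CPM. There 5 of 31 members (16.1%) and 72.5% of 8626 genes passed. The standard error of the change had a median of 0.044 in members and 0.030 in all genes. Its part in the lower share of members was not tested. For bulk tissue, fewer cells of a type and less RNA per cell cannot be told apart.

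With the line as a block, which removes the level of each genotype, 25 members passed, 20 higher and 5 lower, against 76.3% of all genes (36.6% higher, 39.6% lower). Those added included Rpl13a, Rpl15 and Rps6, which were higher, and Rpl5 and Rps4l, which were lower, and none was lost. The split of directions was not the same in voom. It was run on the recovered reads, scaled by library totals without TMM, with precision weights and no variance trend. Without the block voom gave 9 higher and 5 lower, against 68.9% of all genes (28.6% higher, 40.4% lower). With the block it gave 10 higher and 13 lower, against 76.9% (31.7% higher, 45.2% lower). Which of these differences between the fits moved the split was not tested. The rises of Rpl9, Rpl10a, Rpl37, Rps27l and Rps28 were lost in voom without the block, at adjusted p of 0.0629 for Rps28 to 0.131 for Rpl37. Without BXD90 and with the block, 29 members passed, 24 higher and 5 lower, against 77.7% of all genes (37.2% higher, 40.5% lower).

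**Figure D1:**
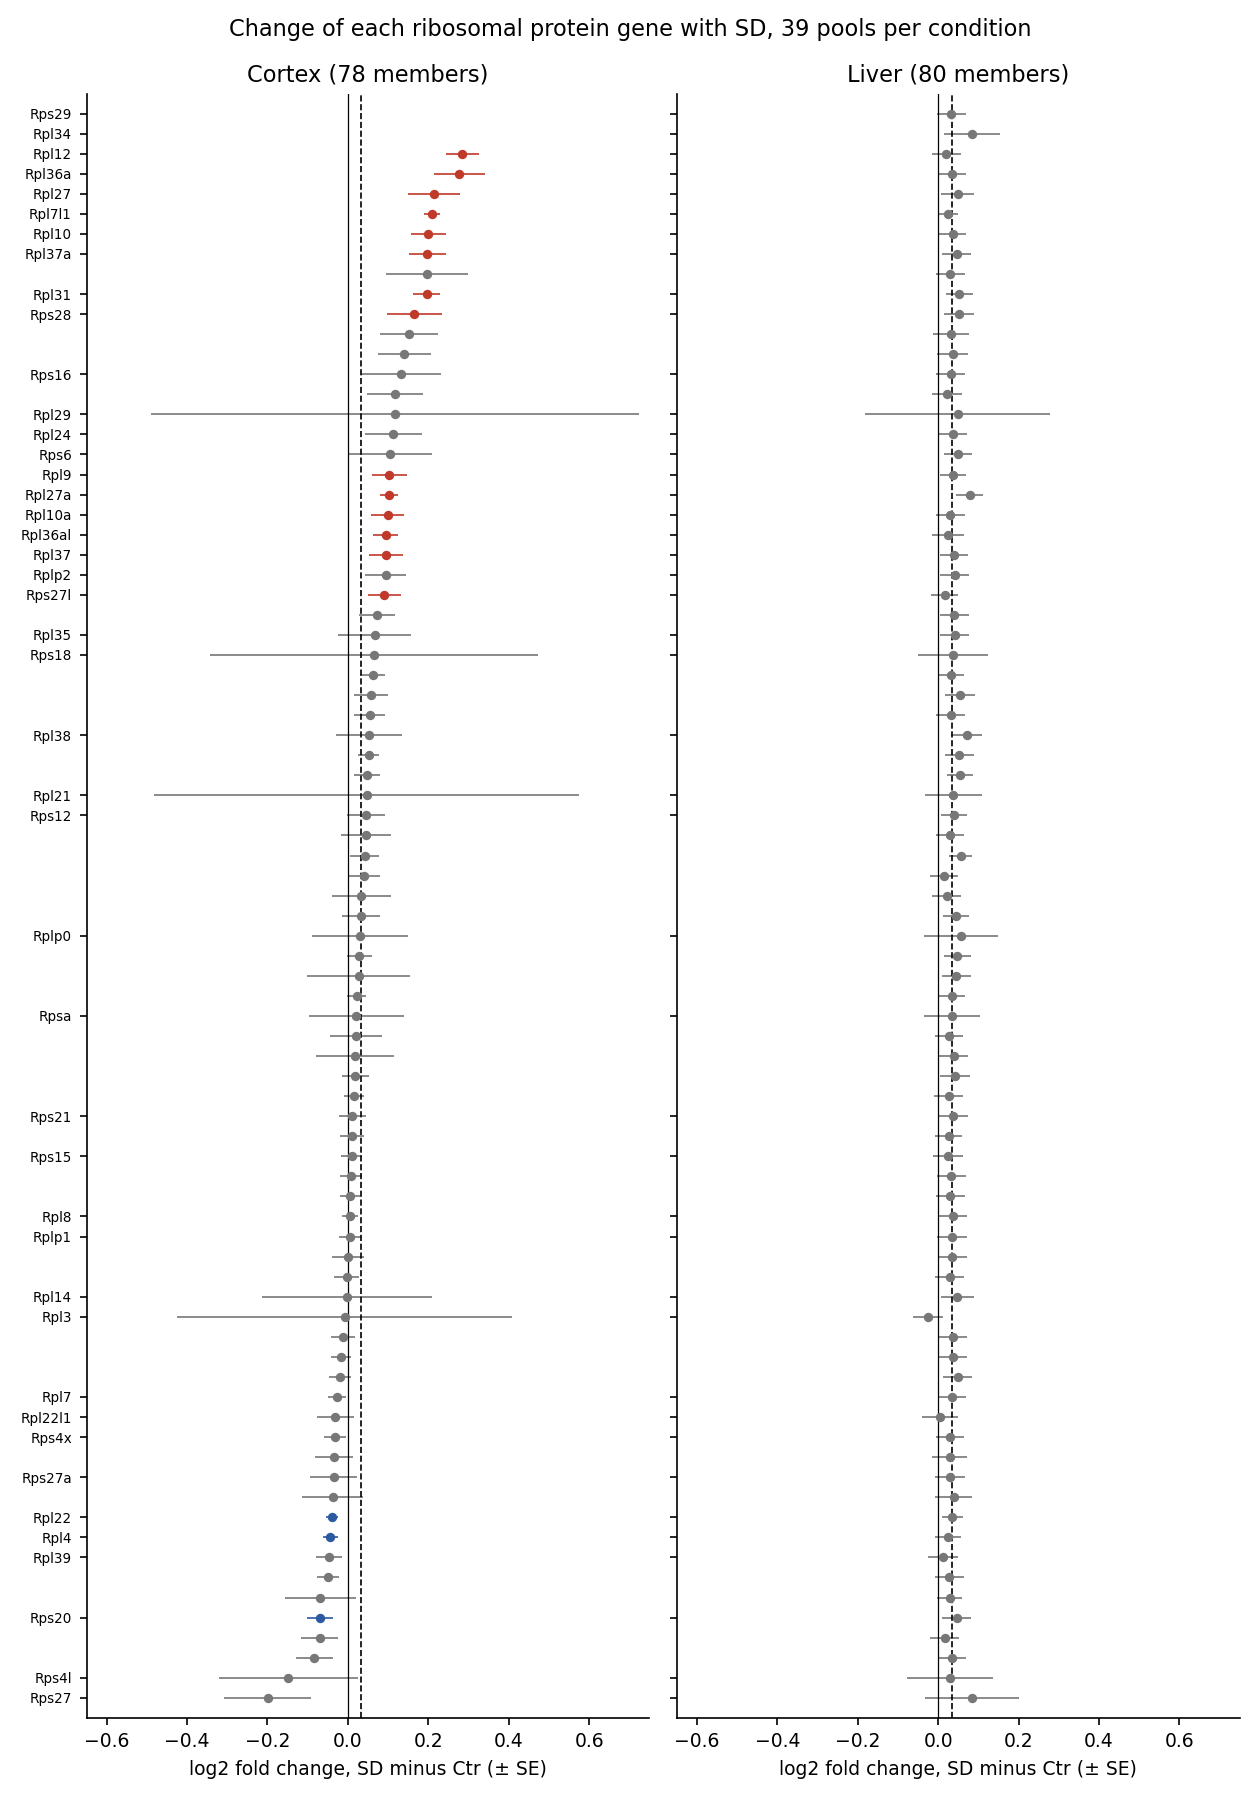
Change with SD of each ribosomal protein gene in cortex (left) and liver (right), as log2 fold change on the log2 CPM scale with its standard error, 39 pools per condition. Red members rose and blue members fell in limma's test, grey members did not pass, called members and most of those described in the text are labelled, and the dashed line is the median of the members (0.03 in cortex, 0.04 in liver). The 17 coloured points are all in cortex, and the wide bars belong to members whose level differs between lines, such as Rpl29, Rpl21, Rpl3 and Rps18.

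The largest rise was that of Rpl12, a protein at the base of the ribosomal stalk. Its level ranged from 1.52 to 2.60 log2 CPM in Ctr (median 2.02) and from 1.97 to 2.55 in SD (median 2.31). The ranges overlapped, yet SD was higher in 34 of 39 lines, and the difference was 0.29 ± 0.04 log2 units (SE; 1.22-fold; adjusted p = 1.93e-09). The gene lies at chr2:32817079-32820016 of mm9 (plus strand), and BXD90 gave its lowest change, -0.39.

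Rpl7l1, a paralog of Rpl7 with a role in the assembly of the large subunit, had the most even response of the family. It ranged from 4.77 to 5.29 log2 CPM in Ctr (median 4.96) and from 5.01 to 5.35 in SD (median 5.18), and it was higher with SD in all 39 lines, although in BXD87 and BXD56 by less than 0.01. The rise was 0.21 ± 0.02 log2 units (1.16-fold; adjusted p = 1.26e-15). At a median of 764.5 reads, and with copies elsewhere in the genome for 2.83% of its transcript, it is one of the members that were counted best. It lies at chr17:46910856-46919605 of mm9 (minus strand).

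Rpl36a, a large subunit protein near the exit site of transfer RNA, was found at few reads, a median of 30 per library. It ran from -0.45 to 0.94 log2 CPM in Ctr (median 0.32) and from -0.02 to 0.97 in SD (median 0.59), higher with SD in 32 of 39 lines. Its rise was 0.28 ± 0.06 (adjusted p = 8.84e-05). Rpl10, which joins the large subunit late in its maturation and completes its active centre, ran from 1.21 to 2.04 log2 CPM in Ctr and from 1.402 to 2.32 in SD and rose by 0.20 ± 0.04 (adjusted p = 4.53e-05; 32 of 39 lines). Both transcripts are copied elsewhere in the genome over more than 9 in 10 of their 100-base stretches, 91.7% for Rpl36a and 93.9% for Rpl10.

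Rpl27 and Rpl37a, further proteins of the large subunit, completed the 6 largest rises. Rpl27 ran from -0.67 to 0.67 log2 CPM in Ctr and from -0.19 to 0.89 in SD and rose by 0.22 ± 0.06 (adjusted p = 0.00236), in 27 of 39 lines. Rpl37a ran from 1.404 to 2.44 in Ctr and from 1.47 to 2.25 in SD and rose by 0.20 ± 0.05 (adjusted p = 1.08e-04), in 31 of 39 lines. The other 8 rises were between 0.09 and 0.20 log2 units. In none of the 78 members did the ranges of the groups stand apart, against 1.396% of all genes, and 7 (8.97%) were higher with SD in at least 30 lines, against 28.6%.

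The 3 falls were smaller. Rps20, a protein of the head of the small subunit, ran from 4.48 to 5.26 log2 CPM in Ctr (median 4.69) and from 4.28 to 4.94 in SD (median 4.64) and fell by 0.07 ± 0.03 log2 units, lower in 26 of 39 lines (adjusted p = 0.0460, and 0.0116 with the line as a block). This call was lost when any of 19 lines was left out singly, and that of the rise of Rps27l when any of 23 was. Rpl4, whose long loop lines the tunnel through which new chains leave, fell by 0.04 ± 0.02 at 8.13 to 8.66 log2 CPM in Ctr and 8.09 to 8.35 in SD (adjusted p = 0.0265; lower in 28 lines). Rpl22, which binds RNA and is dispensable for the ribosome in many tissues, fell by 0.04 ± 0.02 (adjusted p = 0.0204; lower in 22 lines). With the 33 BXD/RwwJ lines alone none of the 3 falls passed (adjusted p = 0.0874, 0.0613 and 0.0532). Without BXD90 the changes of Rps20, Rpl4 and Rpl22 were -0.056, -0.035 and -0.029.

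**Figure D2:**
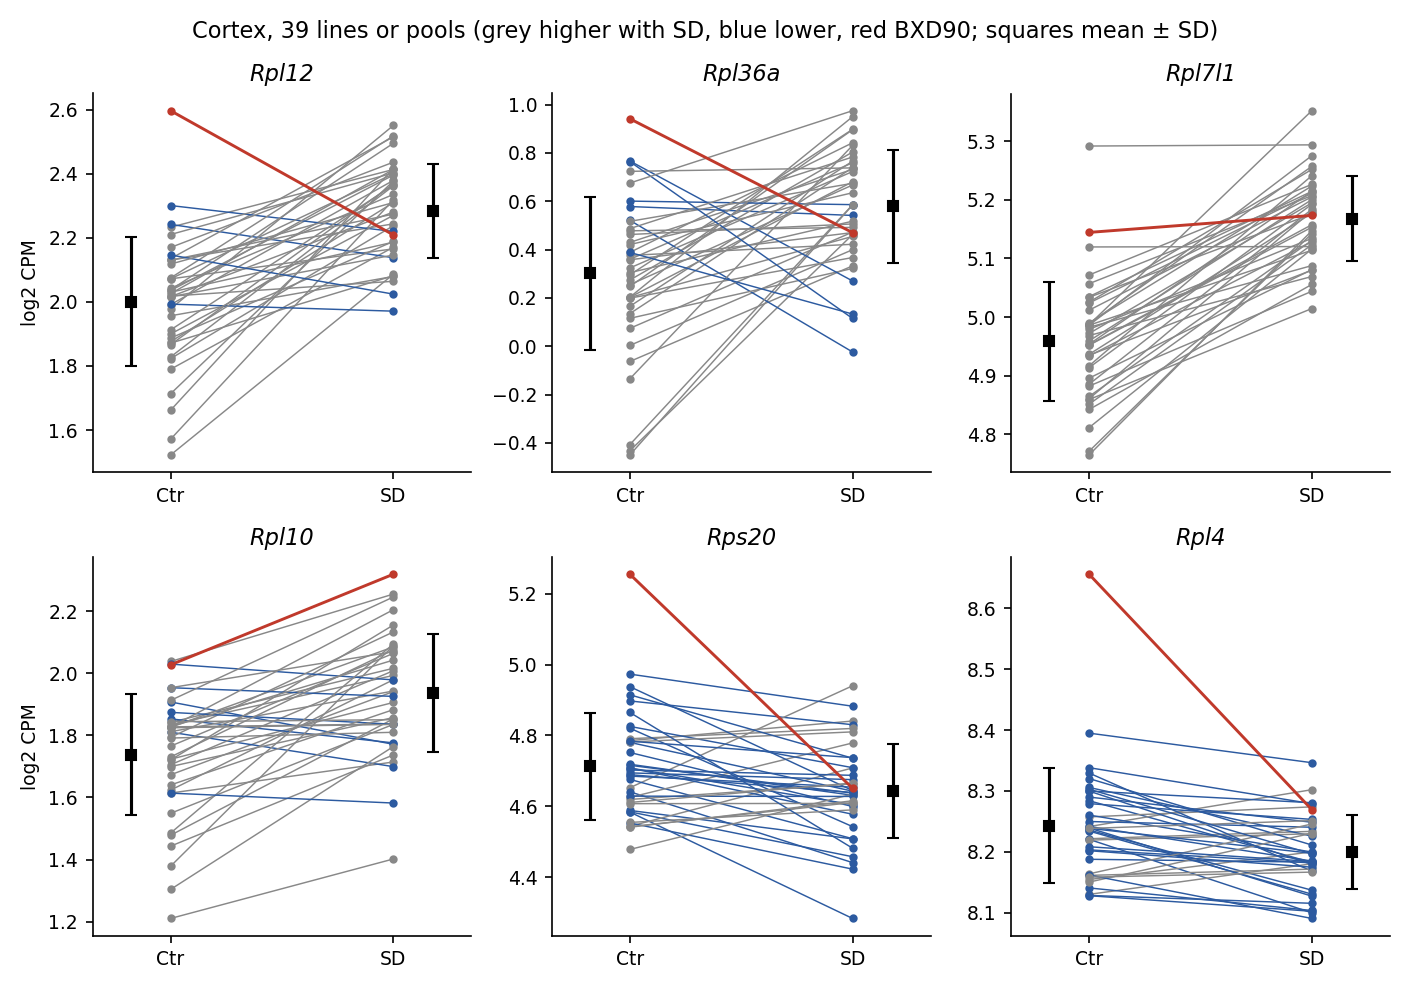
Cortex levels (log2 CPM, each panel with its own axis) of 6 members in Ctr and SD, with 1 line per genotype or pool. Grey lines are higher and blue lines lower with SD, red is BXD90, and squares with bars are the mean and standard deviation of the 39 pools. Rpl7l1 was higher with SD in every line, Rps20 and Rpl4 were lower in 26 and 28, and BXD90 started from the highest Ctr value of Rpl12, Rpl36a, Rps20 and Rpl4.

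The stalk of the large subunit recruits translation factors and is made of Rplp0 with Rplp1 and Rplp2. None of these passed the test in cortex: the change was 0.03 ± 0.12 for Rplp0, 0.00 ± 0.03 for Rplp1 and 0.09 ± 0.05 for Rplp2 (adjusted p = 0.832, 0.895 and 0.0898). Rpsa, the small subunit protein also known as laminin receptor, was at 0.02 ± 0.12 (adjusted p = 0.885), and Rps27a, which is made as a fusion with ubiquitin, at -0.04 ± 0.06 (adjusted p = 0.603). Rps6, the substrate of S6 kinase, had a change of 0.11 ± 0.10 (adjusted p = 0.367, and 0.0378 with the block), higher in 28 of 39 lines. Its level differed more between lines than between conditions, from 0.81 to 2.45 log2 CPM in Ctr and from 0.94 to 2.50 in SD.

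Paralog pairs were set side by side in cortex. Rpl7l1 rose by 0.21 where Rpl7 was at -0.03 ± 0.02 (adjusted p = 0.280), and Rpl36a rose by 0.28 where Rpl36al rose by 0.09 ± 0.03 (adjusted p = 0.00605). Rpl22 fell by 0.04 and Rpl22l1, at -0.03 ± 0.05, did not pass (adjusted p = 0.557). Rps4x was at -0.03 ± 0.03 (adjusted p = 0.276) and Rps4l at -0.15 ± 0.17 (adjusted p = 0.454, and 4.77e-04 with the block), lower in 29 of 39 lines. Rps27l rose by 0.09 ± 0.04 (adjusted p = 0.0486), whereas Rps27 had the lowest change of the family, -0.20 ± 0.11 (adjusted p = 0.0946), at a median of 15 reads and with 99.6% of its stretches copied elsewhere. Rpl39 was at -0.05 ± 0.03 and Rpl3 at -0.01 ± 0.42 (adjusted p = 0.184 and 0.988). The differences between paralogs were not themselves tested, and reads of near-identical copies may have been split or dropped, so these values are uncertain.

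In liver, no ribosomal protein gene passed the test, and the members had small values that lay close together. The count was 0 of 80 in limma, against 44.2% of 14107 genes (21.5% higher, 22.6% lower). Only 1 member had an unadjusted p under 0.05, and voom gave 0 as well (44.5% of all genes, 20.1% higher and 24.4% lower), while the line as a block gave 4 higher (53.9% of all genes, 26% higher and 27.9% lower) and voom with the block 2 higher (54.6%, 25% higher and 29.6% lower). The changes ran from -0.02 to 0.08 log2 units with a median of 0.04, a rise of 2.48%, against -0.00 over all genes, and 79 members were nominally above and 1, Rpl3, below no change. The median change of all genes without regard to sign was 0.12. Here 2 of 80 members had a median of under 100 reads, and the standard error of the change had a median of 0.04. Reads of the members followed library depth only weakly in liver, as described below, and the part of this in the small changes was not tested.

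Rpl27a, a large subunit protein whose tract is printed above, came nearest to the threshold. It ran from 5.82 to 6.32 log2 CPM in Ctr (median 6.02) and from 5.82 to 6.78 in SD (median 6.09). Its change was 0.08 ± 0.03 (adjusted p = 0.0536), higher in 27 of 39 lines, and 0.06 without BXD70. With the line as a block it passed (adjusted p = 0.00664), as did Rpl38, a protein known for its part in translating Hox messages, at 0.07 ± 0.04 (adjusted p = 0.0314), Rpl13a at 0.06 ± 0.03 (adjusted p = 0.0462) and Rpl15 at 0.06 ± 0.03 (adjusted p = 0.0357). Without BXD70 the block left 1, against 56% of all genes (27.4% higher, 28.6% lower). Rps27 and Rpl34 had nominal changes of 0.08 ± 0.12 and 0.08 ± 0.07 at a median of 8 and 29 reads, and Rps29 was at 0.03 ± 0.04. Rpl3, at 7.14 to 7.80 log2 CPM in Ctr and 7.004 to 7.86 in SD, was at -0.02 ± 0.04 (adjusted p = 0.626). Markers of other cell types moved in these libraries: all 9 B cell markers fell with SD, with a summed level of 10.3 to 40.7 CPM in Ctr and 4.07 to 20.4 CPM in SD. Both neutrophil markers and both listed oligodendrocyte markers fell as well, at medians of -0.78 and -0.33 log2 units, and so did 1 of 2 listed neuron markers. The part of these cells in the values of the members was not tested.

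Line by line, the members of liver shifted together. Within a line their changes spread little, with a median interquartile range of 0.0762 log2 units, against 0.234 in cortex, and in 22 of 39 lines at least 9 in 10 members moved one way, against 2 of 39 in cortex. Members also had fewer reads in cortex, a median of 233 against 510.5 in liver, and the part of this in the wider spread was not tested. The line medians ran from -0.29 (F1 DB) to 0.49 (BXD70), with 0.26 (DBA/2J pool 2) the highest after BXD70, and 22 lines were above and 17 below no change. In cortex the medians ran from -0.44 (BXD90) to 0.19 (BXD43), with -0.11 (DBA/2J pool 2) the lowest after BXD90, and 28 of 39 were above no change. Both tissues of a line had the same sign in 17 of 39 lines.

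The shift in liver went with the number of reads. In the 13 lines whose library total fell most from Ctr to SD, by 0.06 to 0.38 log2 units, the line medians were between 0.06 and 0.49, all above 0. In the 13 whose total rose most, by 0.05 to 0.38, they were between -0.29 and 0.01, with 1 above 0. In cortex the lines chosen the same way gave -0.05 to 0.16, with 10 of 13 above 0, and -0.44 to 0.19, with 9 of 13 above 0. A gene counted in proportion to depth gains 1 log2 unit of reads for 1 log2 unit of library total. The fitted gain had a median of 0.175 for 78 liver members with a mean of at least 100 reads, 75 of them under 0.5, whereas it was 1.15 over 9528 liver genes, 12.7% of them under 0.5. In cortex it was 0.912 for 53 members, 2 of them under 0.5, and 0.979 over 11757 genes, 0.476% of them under 0.5. With the library total as a covariate, 8 liver members passed for SD, all higher, against 48.8% of all genes (24.3% higher, 24.5% lower), and with the line as a block as well 15, 14 higher and 1 lower, against 57.3% of all genes (28.1% higher, 29.3% lower). The lower one was Rpl3.

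**Figure D3:**
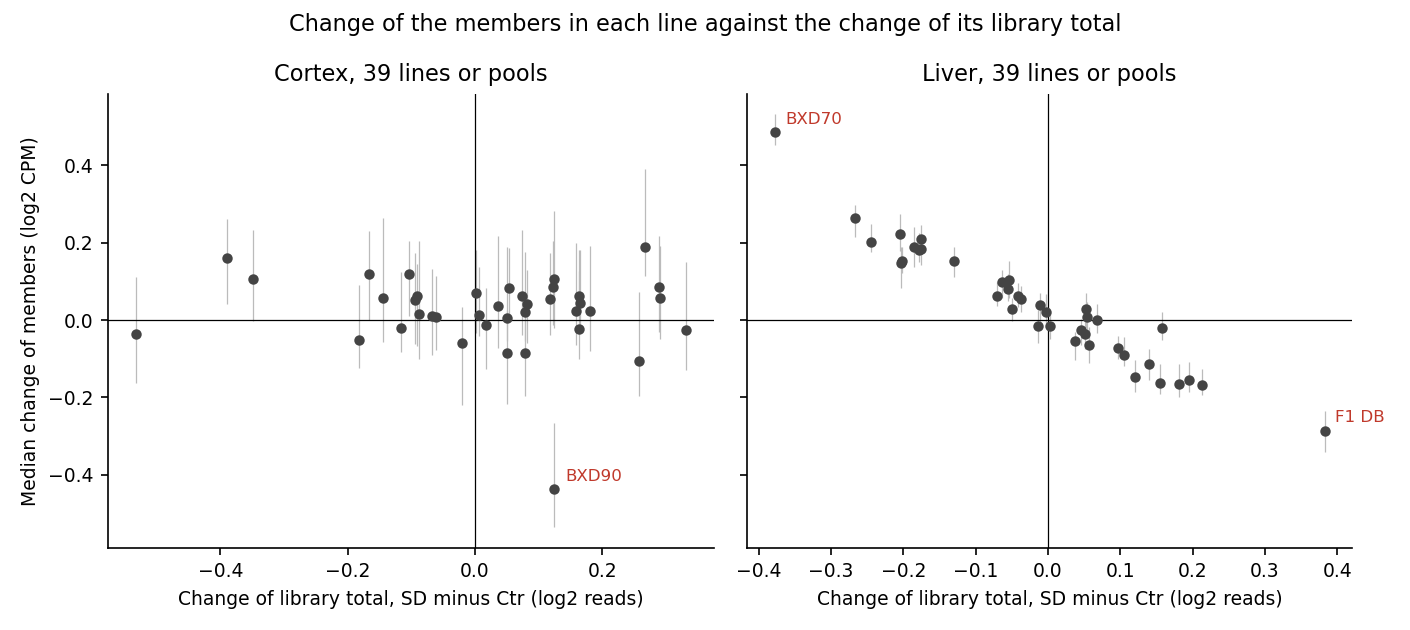
Median change of the members with SD in each line (log2 CPM, vertical axis) against the change of its library total (log2 reads, horizontal axis), for cortex (78 members) and liver (80 members). Bars are the quartiles over the members of a line. In liver the points fall from BXD70 at 0.49 to F1 DB at -0.29 as the total rises, and in cortex BXD90 lies at -0.44, away from the others.

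Reads per length had a different range in each tissue. Reads per base of the annotated mm9 transcript ran in cortex from 0.00520 to 5.88 (median 0.293, 77 members with a length), with Rplp1, Rps15 and Rpl8 highest and Rpl24, Rps16 and Rpl35 lowest. In liver they ran from 0.0232 to 1.69 (median 0.727, 79 members), with Rpl22, Rps21 and Rps12 highest and Rps27, Rpl34 and Rpl24 lowest. Among all genes the highest density was 43.1 reads per base in cortex and 3.02 in liver, and 1 in 100 genes exceeded 5.72 and 1.14. Albumin (Alb), the main secreted protein of hepatocytes, stood at 1.78 in liver, not far above Rpl22. The lengths are those of 1 annotated transcript per gene, and a longer annotated transcript lowers the density of the same number of reads. The transcript used for Rpl24 has 4999 bases, 3153 of them coding, the longest coding sequence among the members with a length. It may not be the Rpl24 message itself, so the low density of Rpl24 in both tissues is uncertain.

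Cortex density also followed how far a member is copied in the genome. Of the 100-base stretches of each transcript, the share found again elsewhere in mm9 was counted. Rpl24, at 0% of the long transcript described above, is among those with under 50%, and its place there is uncertain. For the 6 members with over 90% copied, the median density in cortex was 0.0678 reads per base, for 30 with 50% to 90% it was 0.122, and for 41 with under 50% it was 0.460. The same classes in liver had 0.758 (6 members), 0.751 (31) and 0.633 (42). Across members Spearman's rho between share copied and density was -0.576 in cortex and 0.0683 in liver, given as a description, since members share libraries and sequence. The calls for SD in cortex were 2 of 6, 5 of 30 and 10 of 41 in these classes, against 68.4% of all listed genes. The share of all genes called in each class was not counted.

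**Figure D4:**
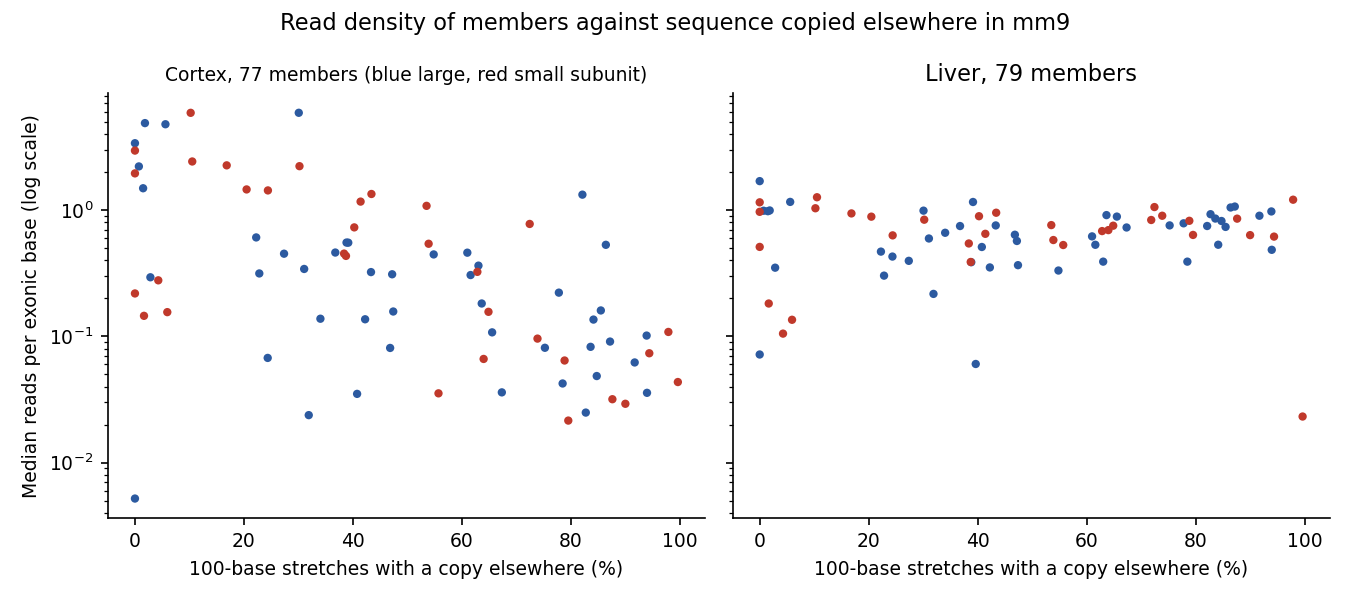
Median reads per exonic base (log axis) of each member against the percent of its 100-base stretches with a copy elsewhere in mm9, in cortex and liver. Blue points are large and red points small subunit members. The cortex points fall to the right (rho = -0.576) while most liver points stay near 1 read per base (rho = 0.0683).

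The response to SD was then compared between the tissues line by line, for the 78 members listed in both. It differed in 11 of them (14.1%), against 57.7% of 12695 genes (28.1% with the liver change higher, 29.6% lower), and the median difference of the members, liver minus cortex, was 0.01. In 6 members the liver change was lower, and each of these was one of the risers of cortex. Rpl12 rose by 0.29 in cortex and was at 0.02 ± 0.04 in liver, a difference of -0.26 ± 0.05 (adjusted p = 2.83e-05), lower in liver in 31 of 39 lines. Its liver level overlapped between conditions almost fully, 6.64 to 7.18 log2 CPM in Ctr and 6.59 to 7.50 in SD. Rpl36a differed by -0.24 ± 0.06 (adjusted p = 0.00106; 32 lines), Rpl7l1 by -0.18 ± 0.03 (adjusted p = 5.73e-07; 34 lines) and Rpl10 by -0.16 ± 0.04 (adjusted p = 6.12e-04; 26 lines). In the other 5 the liver change was higher, with Rps4l at 0.18 ± 0.07 (adjusted p = 0.0253; 26 lines) the farthest. The tables of the tissues were normalized separately, and with the library totals as covariates 17 members passed, 11 lower and 6 higher, against 59.9% of all genes (29.4% higher, 30.5% lower). Reads of the members also followed library depth less in liver than in cortex, with a median gain of 0.175 against 0.912. The part of this in the tissue differences was not tested. Under quantile normalization 22 passed, 18 lower and 4 higher, and with all 43 pools 17, 6 lower and 11 higher. For these last fits the share of all genes was not counted, so whether the members alone moved cannot be told.

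Several of these genes differed far more between lines than with SD. A test of differences between lines, over both conditions, passed in 34 of 78 members in cortex (43.6%), against 55.2% of all genes, and in 78 of 80 in liver (97.5%), against 57.9%. With the library total as a covariate the cortex count was 35, against 54.3% of all genes, and the liver count was 23, against 44%. The standard deviation of a member over the 39 Ctr pools had a median of 0.196 log2 units in cortex (0.0774 to 2.82; all genes 0.137) and 0.136 in liver (0.0890 to 1.06; all genes 0.201).

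A few members had many counted reads in some cortex lines and very few in others. Few counted reads need not mean an absent transcript, because reads of copied genes are hard to place. When lines were put in order of their cortex level, 6 members (7.69%) showed a gap of over 0.5 log2 units with at least 5 lines on each side, against 1.46% of all genes, and in liver 1 (1.25%), against 2.13%. In all 6 the C57BL/6J pools and both hybrids lay above the gap and the DBA/2J pools below it. Which allele each line carries at these genes was not analysed here.

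The widest gap was in Rpl29, a heparin-binding protein of the large subunit at chr9:106331785-106333899 of mm9 (plus strand). In cortex 18 lines lay between -1.86 and -0.53 log2 CPM and 21 between 3.31 and 4.59. The C57BL/6J libraries were at 4.31, 4.30, 4.07 and 4.18, the DBA/2J libraries at -0.54, -1.35, -1.99 and -0.90, and the hybrids at 3.18, 3.496, 3.40 and 3.22. The difference between the parental strains, DBA/2J minus C57BL/6J over 4 against 4 libraries of 2 pools each, was -5.41 ± 0.24 log2 units (adjusted p = 2.90e-10). In liver the same 18 lines and 21 lines lay apart again, at 3.32 to 3.96 and 5.44 to 6.01, and the strains differed by -2.12 ± 0.11 (adjusted p = 1.21e-08).

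Rpl21, at chr5:147644466-147648608 of mm9 (plus strand), lay between -0.16 and 0.67 log2 CPM in 24 lines and between 4.23 and 5.32 in 15. The parental difference was -4.99 ± 0.15 in cortex (adjusted p = 4.00e-12) and -0.39 ± 0.08 in liver (adjusted p = 0.00295), where all 39 lines kept their side with a gap of 0.14. Rps18, a protein of the small subunit head at chr17:34088944-34092946 of mm9 (minus strand), was low in 10 lines, 0.57 to 0.93, and high in 29, 4.02 to 5.16. Its parental difference was -4.10 ± 0.12 in cortex (adjusted p = 5.52e-12) and -0.78 ± 0.09 in liver (adjusted p = 2.88e-05), again with all 39 lines on the same side.

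Rpl3, which lies close to the catalytic centre, differed between lines in cortex alone by this measure. At chr15:79908211-79913836 of mm9 (minus strand), it lay between 0.63 and 1.47 log2 CPM in 21 lines and between 3.91 and 5.10 in 18. The parental difference was -3.94 ± 0.11 in cortex (adjusted p = 3.09e-12) and 0.01 ± 0.07 in liver (adjusted p = 0.904). In liver all lines held Rpl3 between 7.004 and 7.86 log2 CPM. Rpl14 and Rps15a had gaps of 0.81 and 0.55 between 21 and 18 lines in cortex, with parental differences of -1.996 ± 0.09 and -1.04 ± 0.04. Of the transcripts named here, 63.0% of Rpl29, 40.8% of Rpl21, 53.5% of Rps18 and 84.7% of Rpl3 is copied elsewhere in mm9, and a base that differs between the strains can change where a read is placed. The part of read placement in these differences was not tested.

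**Figure D5:**
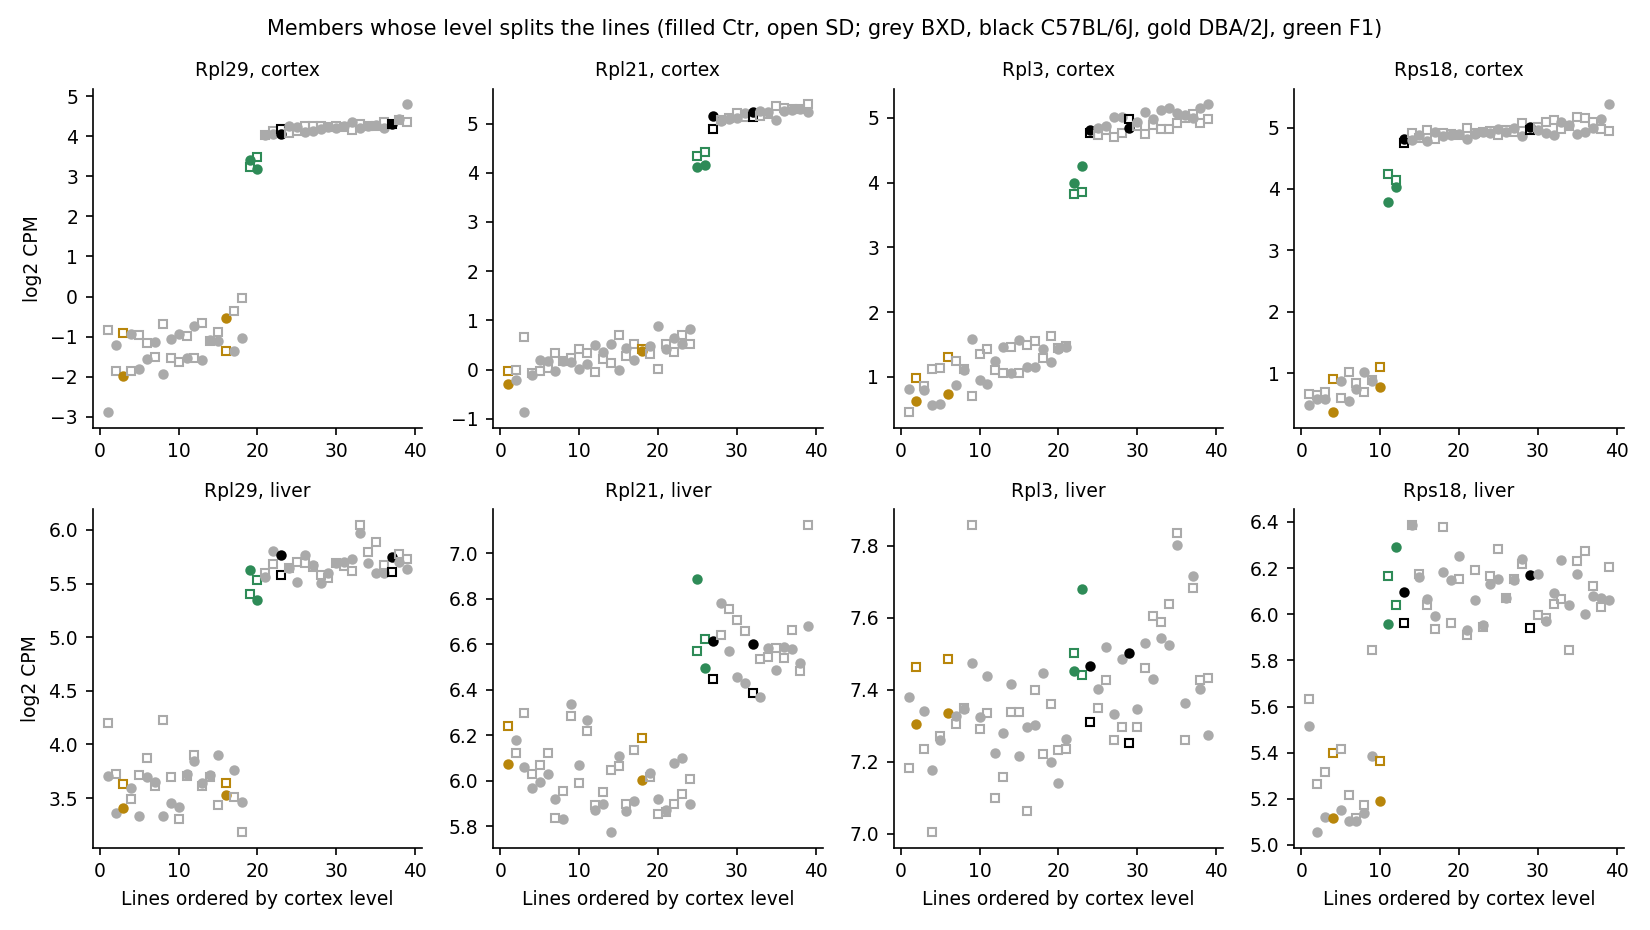
Level of 4 members (log2 CPM, each panel with its own axis) in the 39 lines or pools, which are ordered in both tissues by the mean cortex level of that gene. Filled circles are Ctr and open squares SD, with BXD in grey, C57BL/6J in black, DBA/2J in gold and F1 in green. Cortex levels of all 4 fall into a low and a high set with C57BL/6J in the high and DBA/2J in the low one, and liver repeats this for Rpl29, Rpl21 and Rps18 but not for Rpl3.

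In all, 18 members (23.1%) differed between the parental strains in cortex, 3 higher and 15 lower in DBA/2J, against 25.5% of all genes (11.6% and 13.9%), and 6 (7.5%) in liver, all lower in DBA/2J, against 17.9% (8.42% and 9.47%). Those of liver were Rpl29, Rpl21, Rps18, Rplp0, Rpsa and Rps4l, and each was lower in DBA/2J cortex too. Rplp0 differed by -1.19 ± 0.07 in cortex and -0.75 ± 0.07 in liver, and Rps4l by -1.60 ± 0.12 and -0.78 ± 0.13. The median parental difference of the members was 0.00 in cortex and 0.12 in liver, against 0.01 and -0.00 over all genes. In liver its direction depended on the condition. In Ctr the members' median deviation from the mean of all lines was 0.04 and 0.05 in C57BL/6J and -0.02 and -0.04 in DBA/2J. In SD it was -0.15 and -0.09 in C57BL/6J and 0.14 and 0.17 in DBA/2J. Those SD libraries held 7491781 and 7250062 reads in C57BL/6J and 5785013 and 5690812 in DBA/2J. The part of depth was not tested.

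Other genes of the translation machinery were set beside the family. Genes of ribosome biogenesis, which make and fold ribosomal RNA and load it with proteins, passed the test in 76.6% of 47 in cortex and 74.5% in liver, where 68.4% and 44.2% of all genes did: 27 rose and 9 fell in cortex (median 0.06) and 27 rose and 8 fell in liver (median 0.10). In cortex Rrp1b rose by 0.42 ± 0.03, Heatr1, a factor for transcription of ribosomal RNA, by 0.39 ± 0.02, and Ubtf, which binds the ribosomal RNA promoter, by 0.32 ± 0.02. In liver Nop2, a ribosomal RNA methyltransferase, rose by 0.43 ± 0.04 and Nob1, a nuclease of small subunit maturation, by 0.33 ± 0.04, and Taf1b fell by 0.49 ± 0.08.

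Of 20 translation factors and other genes whose messages carry a TOP tract, 4 rose and 8 fell in cortex (60%, median -0.02), against 68.4% of all genes. In liver 5 rose and none fell (25%, median 0.05), against 44.2% of all genes. With the line as a block 10 rose in liver, against 53.9% of all genes called. Tpt1 rose by 0.30 ± 0.04 and Hnrnpa1 by 0.22 ± 0.03 in cortex, where Eif4b, a cofactor of the RNA helicase of initiation, fell by 0.21 ± 0.01. In liver Eif4a2 rose by 0.13 ± 0.02, Eef1d by 0.09 ± 0.03 and Npm1 by 0.08 ± 0.03. Of 27 genes of mTORC1, Myc and other regulators, 13 rose and 6 fell in cortex (70.4%, median 0.04), against 68.4% of all genes. In liver 9 rose and 6 fell (55.6%, median 0.02), against 44.2% of all genes. Ddit4, an inhibitor of mTORC1, rose by 0.49 ± 0.05 in cortex and 0.68 ± 0.11 in liver. Eif4ebp1, a repressor of initiation, fell by 0.47 ± 0.07 in cortex, where the transcription factor Gabpa rose by 0.41 ± 0.03. In liver Rps6kb2, one of the S6 kinases, fell by 0.42 ± 0.04 and Max, the partner of Myc, rose by 0.22 ± 0.03.

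The proteins of the mitochondrial ribosome are encoded in the nucleus and share no gene with the cytosolic one. They gave 37 rises and 13 falls of 76 in cortex (65.8%, median 0.07), against 68.4% of all genes. In liver there were 11 rises and 4 falls of 76 (19.7%, median 0.01), against 44.2% of all genes. With the line as a block there were 17 rises and 7 falls in liver, against 53.9% of all genes. Mrps6 rose in both tissues, by 0.27 ± 0.03 and 0.25 ± 0.03. In cortex Mrpl35 rose by 0.25 ± 0.10 and Mrpl55 fell by 0.23 ± 0.10, and in liver Mrpl36 rose by 0.15 ± 0.03 and Mrps9 fell by 0.15 ± 0.03. Nuclear genes of the respiratory chain and its assembly factors gave 19 rises and 16 falls of 85 in cortex (41.2%, median 0.02), against 68.4% of all genes. In liver they gave 3 rises and 4 falls of 83 (8.43%, median 0.03), against 44.2%. The assembly factor Ndufaf4 rose in both tissues, by 0.32 ± 0.02 and 0.13 ± 0.03. In cortex Ndufaf1 rose by 0.23 ± 0.03 and Ndufa4l2 fell by 0.33 ± 0.06, and in liver Atp5s fell by 0.40 ± 0.08 and Ndufaf3 by 0.20 ± 0.04.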

How the data were processed

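Messenger RNA of pooled mice was sequenced by the authors with a stranded TruSeq protocol on single-end reads, which were aligned to mm9 with STAR and counted per UCSC RefSeq gene with htseq-count, and genes with a mean raw count below 10 were dropped. The versions of the aligner and counter are not given in the sources used here. The deposited values are log2 CPM after TMM scaling, in 4 tables, 1 for each of the groups formed by tissue and condition. No read counts were at hand, so the whole reads behind every value were recovered from the steps between low values (all within 0.02 of a whole number).

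The members and gene lists were chosen with earlier results of these data known. Labels gave the groups. SD and Ctr were compared on the log2 CPM values with limma 3.58.1 (R 4.3.3; lmFit, eBayes with trend, Benjamini-Hochberg over all listed genes) on 39 against 39 libraries without a block, a design planned for counts and run on log2 values. Alternatives were the line as a replicate block, voom on recovered reads, quantile normalization, the 33 BXD/RwwJ lines alone, all 43 pools, each line left out and, chosen after the data were seen, the library total as a covariate, some of these with the block, and the odd libraries left out. The labels give the same line to a Ctr and an SD pool of different mice of one genotype: their deviations from the group means correlated with r of at least 0.299 in cortex and 0.169 in liver (medians 0.614 and 0.475, other lines -0.0197 and -0.0180), so the line pairs the samples, and blocked values stand beside the calls of members they change and the lists whose counts they move most. Tissues were compared on the paired change of each line, strains with condition as a term on 4 against 4 libraries of 2 pools each. Copied stretches were exact matches of 100 bases elsewhere in mm9.

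The members named were the 6 largest called rises and falls of a tissue, the 5 changes farthest from the median, the 5 most variable over Ctr pools, the 5 largest called tissue differences, the paralogs, the stalk proteins with Rpsa, Rps6 and Rps27a, and the extremes of read density; Rps15a, Rps27l as a marginal call, and the members added by the block or listed for the tissue difference were chosen after their values were seen. The fit was tested on simulated data in which reads rose in proportion to library total. Liver members did not follow depth in that way, so the simulation does not cover them. Read counts set the precision of low members, pools of different mice are the only replicates, and p-values measure the spread between these pools.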

Additional observations from a re-analysis of the deposited data

Results flagged for a closer look

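The response to SD differed between liver and cortex in 11 members by limma's test of the difference over 39 lines (14.1% of the members, 57.7% of all genes). The change in liver minus that in cortex was -0.26 log2 units for Rpl12, -0.24 for Rpl36a, -0.18 for Rpl7l1, -0.16 for Rpl10, -0.15 for Rpl37a and -0.14 for Rpl31, all of which rose in cortex and did not pass in liver. It was 0.18 for Rps4l, 0.12 for Rps20, 0.10 for Rpl5, 0.074 for Rpl22 and 0.068 for Rpl4. The call for Rpl4 was lost when any of 22 lines was left out, and that for Rpl22 when BXD70 was (0.06). The tables of the tissues were normalized separately, and reads of the members followed library depth less in liver than in cortex. The part of this in the differences was not tested.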

How the results depend on the processing

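In cortex, the 17 called members became 28 under quantile normalization, 9 with the 33 BXD/RwwJ lines alone, 25 with the line as a replicate block and 29 without BXD90 with that block, and 12 (without BXD101) to 21 (without BXD90) with a line left out. In liver, the 0 called members became 4 with the replicate block, 2 in voom with the block, 1 with all 43 pools, 8 with the library total, 15 with the total and the block, 1 without BXD70 with the block, and 0 to 2 (without F1 DB) with a line left out. The 11 tissue differences became 22 under quantile normalization, 17 with all 43 pools, 17 with library totals as covariates and 10 to 13 with a line left out. The 78 line differences of liver became 23 with the library total. The cause of these moves was not tested. Shares of all genes were not counted under quantile normalization, with the 33 BXD/RwwJ lines alone, with all 43 pools or with a line left out. For those settings it cannot be told whether the members or all genes moved. The group median stayed positive with a line left out, 0.03 to 0.04 in cortex and 0.02 (without BXD70) to 0.04 in liver. Of 844 values of single members under alternatives other than leaving out a line, 784 kept direction and side, 27 passed newly, 15 no longer passed and 18 changed sign, in members whose change was within 0.04 of 0. Rpl3 in cortex went to 0.035 (quantile), 0.00025 (total with block), 0.0053 (without BXD90 with block) and -0.023 to 0.015 with a line left out. Rplp1 in cortex went to -0.032 (quantile), -0.019 (voom, with or without block), -0.0037 (43 pools) and -0.0044 to 0.017 with a line left out. Rps27a in cortex went to 0.051 (quantile). Rpl22l1 in liver went to -0.012 (voom), -0.0022 (voom with block), -0.0097 (total), -0.012 (total with block) and -0.021 (without BXD70, with and without the block) to 0.015 (without F1 DB). Rpl39 in liver went to -0.0019 (voom), -0.0043 (total) and -0.0032 (total with block). Rps27l in liver went to -0.00013 (total with block) and -0.00056 (without BXD70, with and without the block) to 0.028 (without F1 DB). Depth limits the 27 cortex members under 100 reads.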
